A study of Mus musculus with 4 samples.

Results

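Apoe encodes apolipoprotein E and was 1 of the 140 genes counted by multiplexed error-robust fluorescence in situ hybridisation (MERFISH), an imaging assay that counts single RNA molecules and assigns them to segmented cells. The gene was taken by its symbol from the count tables of all 4 coverslips, and its levels, its cell-to-cell spread and its position in the tissue are described here across cell populations. Apolipoprotein E is a secreted protein that packages cholesterol and phospholipid into lipoprotein particles, which other cells take up through receptors of the low-density lipoprotein (LDL) receptor family and bind through heparan sulfate proteoglycans. In the healthy adult brain most of it is made by astrocytes, and microglia make more of it during development and after injury or loss of myelin. Macrophages at the brain's borders and some vessel-wall cells are further known sources.

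The tissue was coronal sections containing barrel cortex from mice at postnatal day 5, taken 24 hours after the whiskers of the right side were lesioned at postnatal day 4. Each of the 4 coverslips carried a section from 1 wild-type mouse and a section from 1 mouse lacking Cx3cl1, the gene for a chemokine whose receptor Cx3cr1 microglia carry. Coverslips 1 and 2 were labelled male and coverslips 3 and 4 female. All brains were taken after the lesion, and each coverslip mixed both genotypes and the tissue of both sides. The files used here do not say which section had which genotype, and no genotype or hemisphere was assigned from the counts. All values below are therefore for a coverslip as a whole, with n = 4. Nothing beyond the labels says that the coverslips came from separate litters or runs, so the errors and p-values measure the spread between these 4 samples.

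The 4 tables held 863580 cells and 192921713 gene counts, and 794833 cells with at least 20 gene counts were kept. The median count per kept cell was 161, 162, 185 and 273 on coverslips 1 to 4, and blank barcodes took 1.16% to 1.48% of all counts. Cells were grouped by 36 marker genes that did not include Apoe, giving 24 populations and 2 clusters of low counts. Cells called astrocyte-like exceeded the other cells in all 6 astrocyte markers of the panel, by 5.81- to 14.3-fold per cell volume. Microglia-like cells exceeded the others in 7 microglial markers by 16.4- to 108-fold, and oligodendrocyte precursor (OPC)-like cells in Pdgfra, Sox10 and Cspg4 by 25- to 41.4-fold. Vessel cells combined a Cldn5/Pecam1 cluster, endothelial in its markers, with a Pdgfrb cluster, mural in its markers. The labelled border macrophages were not resolved: the nearest cluster exceeded the other cells in 4 of the 5 markers, Mrc1 (57.3-fold), Lyve1 (21.4-fold), Csf1r (9.5-fold) and C1qa (7.08-fold), and had Ptprc at 1.17-fold. The basement membrane gene Col4a6, Wnt6, Wnt5a and the microglial marker Tmem119 (10.9-fold) were also among its leading genes. It is called the Mrc1/Lyve1 cluster here and is a mixture. No doublet caller was run.

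Apoe made up 7596965 counts, or 3.94% of all gene counts, and was highest in astrocyte-like cells, microglia-like cells and the Mrc1/Lyve1 cluster. Astrocyte-like cells (108494 cells) held 34.6, 24.9, 41.3 and 49.0 Apoe counts per cell on coverslips 1 to 4, a mean of 37.5 ± 10.2 (SD, n = 4). Microglia-like cells (11389 cells) held 26.3, 23.2, 36.0 and 36.3 counts per cell, a mean of 30.4 ± 6.72. The Mrc1/Lyve1 cluster (8465 cells) held 25.7, 20.8, 37.3 and 37.3 counts per cell, a mean of 30.3 ± 8.36. Within a coverslip, microglia-like cells stood at 74.0% to 93.0% of the astrocyte-like level and the Mrc1/Lyve1 cluster at 74.5% to 90.2%, so both were below astrocyte-like cells per cell on 4 of 4 coverslips. Coverslip 2 was the lowest in each of the 3 populations, and both female coverslips were above both male ones.

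Vessel cells and OPC-like cells were lower. Vessel cells (48952 cells) held 10.8, 7.25, 13.1 and 14 Apoe counts per cell, a mean of 11.3 ± 2.99, with 11.7 ± 3.07 in the Cldn5/Pecam1 cluster and 10.3 ± 2.85 in the Pdgfrb cluster. OPC-like cells (51763 cells) held 6.07, 4.00, 6.98 and 8.73 counts per cell, a mean of 6.45 ± 1.97. The highest vessel value was below the lowest value of any of the 3 leading populations, whereas vessel and OPC-like values overlapped between coverslips. Newly formed oligodendrocyte-like cells, with Enpp6 and Sox10 among their leading genes, held 4.67 ± 1.31 counts per cell.

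Neurons were at the bottom of the order. Neuron-like cells as a whole (463779 cells) held 2.52, 1.68, 3.04 and 4.07 Apoe counts per cell, a mean of 2.83 ± 0.998, and the means of their single clusters ran from 1.29 ± 0.565 in the Vip cluster to 3.82 ± 1.46 in the Gad1/Gad2 cluster. The means of neighbouring neuron clusters in that order lay within their SD over coverslips, a measure that leaves out the pairing within coverslips. Some neighbours kept their order on each coverslip. The Sst cluster (2.58, 1.81, 3.42 and 4.51) was above the Syt6 cluster (2.00, 1.63, 2.89 and 3.95). The Cux2 cluster (1.51, 1.16, 1.87 and 2.44) was above the Vip cluster (1.12, 0.788, 1.16 and 2.10). These differences were not tested. A Musk/Ezr cluster of no assigned type held 11.1 ± 3.95 counts per cell, close to the vessel level. The highest of the blank barcodes averaged 0.119 to 0.376 counts per cell over these classes, below Apoe in each of them.

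**Figure D1:**
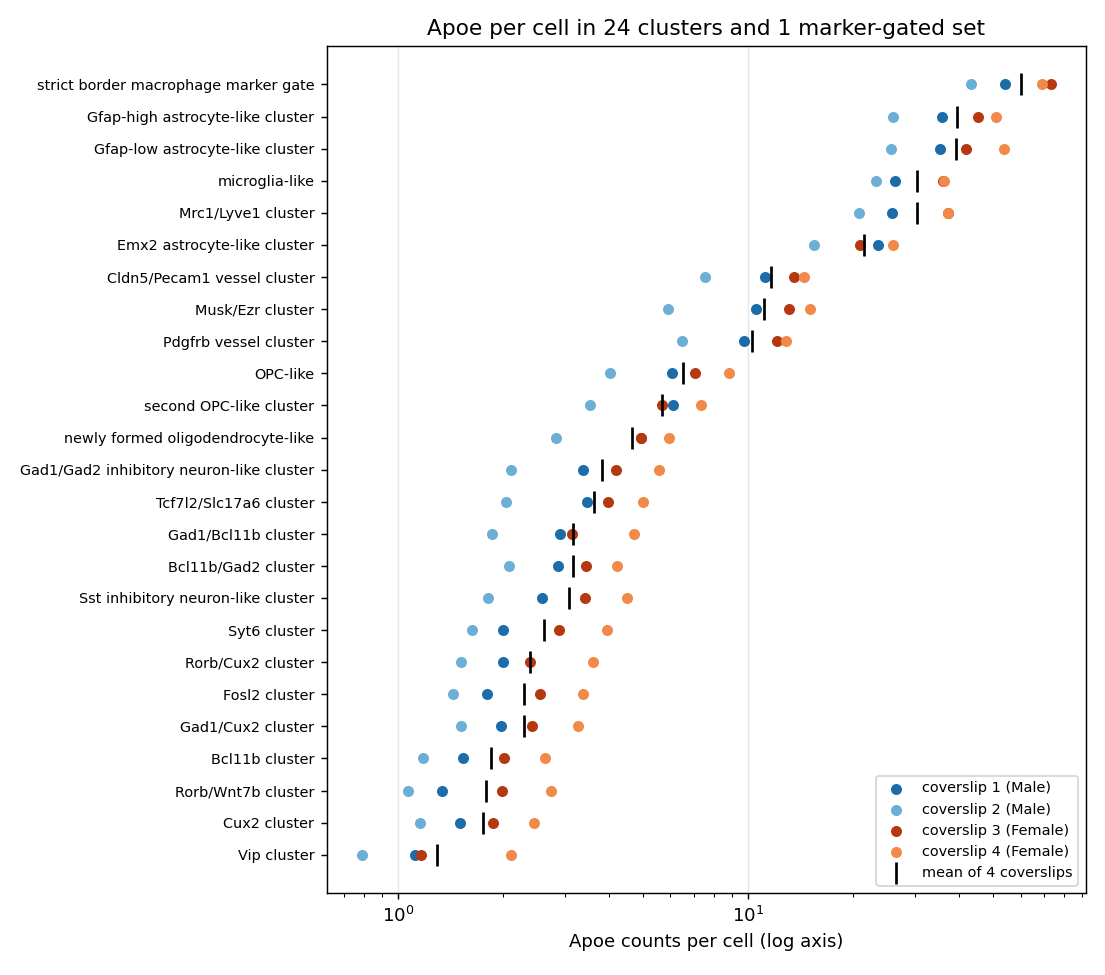
Mean Apoe counts per cell (horizontal log axis) on each of the 4 coverslips (points) and their mean (bar) in 24 clusters and in the strictly gated border macrophage cells. The gated cells (mean 60.0) and the Gfap-high, Gfap-low, microglia-like and Mrc1/Lyve1 clusters (30.3 to 39.5) lie above the vessel clusters (10.3 and 11.7), and the neuron clusters lie at 1.29 to 3.82.

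Astrocyte-like cells were not uniform in Apoe. A Gfap-high cluster (59440 cells) and a Gfap-low cluster (38154 cells) held 39.5 ± 11 and 39.1 ± 11.8 Apoe counts per cell. The Gfap-high cluster was above the Gfap-low cluster per cell on coverslips 1 to 3 and below it on coverslip 4. An Emx2 cluster (10900 cells), which exceeded the other cells in the same 6 markers but less strongly, held 21.4 ± 4.51. Apoe as a percent of all gene counts of a cell class was 20.1%, 16%, 21.2% and 19.3% in astrocyte-like cells and 19.5%, 19.4%, 24.7% and 19.1% in microglia-like cells. On this scale the means were 20.7% in microglia-like cells, 19.2% in astrocyte-like cells and 16.8% in the Mrc1/Lyve1 cluster. They were 6.61% in vessel cells, 4.45% in OPC-like cells and 0.990% in neuron-like cells. The order of the first 2 means differed from that per cell, but not on every coverslip. Microglia-like cells were above astrocyte-like cells on coverslips 2 and 3 and below them on coverslips 1 and 4. On the percent scale the Gfap-low cluster was above the Gfap-high cluster on each coverslip. The values were 22.5%, 18%, 24.7% and 22.2% in the Gfap-low cluster and 20.5%, 16.6%, 22% and 20.2% in the Gfap-high cluster. The difference between these clusters was not tested.

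Because the classes differ in size, the sources of the Apoe signal did not follow the level per cell. Astrocyte-like cells were 13.6% of kept cells and held 55.0% ± 1.49 of all Apoe counts in kept cells. Neuron-like cells, at 58.2% of cells, held 17.5% ± 0.949 of them. Vessel cells held 7.54%, microglia-like cells 4.76% from 1.42% of cells, OPC-like cells 4.46% and the Mrc1/Lyve1 cluster 3.57%. Fewer cells of a class and less signal per cell are separate quantities here, since cells were counted.

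The 10 pairs among the 5 non-neuronal classes were tested with edgeR's quasi-likelihood test on counts summed per coverslip and class, with summed cell volume as offset and the coverslip as a block, and Benjamini-Hochberg adjustment over the 104 genes not used for grouping. Nearly every gene differs between cell types in such a test, so each adjusted p is given beside the share of genes called in that comparison. Apoe was 2.63 ± 0.04 log2 units (SE) higher in astrocyte-like than in OPC-like cells (adjusted p = 9.2e-11, edgeR) where 77.9% of genes were called. It was 1.79 ± 0.05 higher in astrocyte-like than in vessel cells (adjusted p = 5e-34, edgeR; 90.4% called). Very small adjusted p-values arise because edgeR shares the estimate of spread over genes, and each of these differences held on 4 of 4 coverslips.

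Microglia-like cells exceeded OPC-like cells by 2.29 ± 0.08 log2 units (adjusted p = 7.9e-10, edgeR; 95.2% called) and vessel cells by 1.44 ± 0.07 (adjusted p = 2.1e-10, edgeR; 89.4% called). The Mrc1/Lyve1 cluster exceeded OPC-like cells by 2.41 ± 0.14 (adjusted p = 4.6e-48, edgeR; 82.7% called) and vessel cells by 1.57 ± 0.12 (adjusted p = 7.3e-32, edgeR; 83.7% called). OPC-like cells were below vessel cells by 0.84 log2 units (log2 difference -0.84 ± 0.05, adjusted p = 8.1e-09, edgeR; 86.5% called). Apoe thus separated the 3 leading classes from vessel cells, and vessel cells from OPC-like cells, under every alternative run for those pairs.

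The order among the 3 leading classes depended on the scale. Per cell volume, Apoe was 0.34 ± 0.10 log2 units higher in astrocyte-like than in microglia-like cells (adjusted p = 0.0074, edgeR), in a comparison where 97.1% of genes were called, 94 of them higher and 7 lower, with a median over all genes of 0.96. With trimmed-mean (TMM) scaling, which sets the typical gene to 0, the same difference was -0.75, 39 genes were called higher and 44 lower. Astrocyte-like cells and the Mrc1/Lyve1 cluster differed by 0.22 ± 0.12 (adjusted p = 0.0933, edgeR; 79.8% called). Microglia-like cells and the Mrc1/Lyve1 cluster differed by -0.13 ± 0.12 (adjusted p = 0.297, edgeR; 95.2% called), and by 1.02 with TMM scaling.

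Cells with the clearest macrophage markers in the Mrc1/Lyve1 cluster held more Apoe than the cluster as a whole. A strict gate for border macrophage markers kept 876 cells (209, 221, 176 and 270 per coverslip). These had at least 5 counts of Mrc1 and Lyve1, at least 3 times their summed astrocyte, OPC, vessel and neuron markers each, at least 2 Lyve1 counts and at least 2 counts of 5 microglial markers. These cells held 54.3, 43.4, 73.3 and 68.9 Apoe counts per cell, a mean of 60.0 ± 13.7. Apoe made up 34.8% ± 3.02 of their gene counts, the highest share of any population described here. The gate limits their counts of other classes' markers, which are part of that total, whereas the clusters were not gated. The effect of the gate on this share was not tested.

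On each coverslip the gated cells were above the astrocyte-like, microglia-like and whole Mrc1/Lyve1 values of that coverslip. The summed counts of 4 astrocyte markers (Slc1a3, Aqp4, Aldh1l1 and Gfap) were at 3.05 per cell in the gated cells, where the gate itself limits them.

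Segmented cells in a section can carry counts from their neighbours, so Apoe in each class was set beside the 6 astrocyte markers (Slc1a3, Aqp4, Aldh1l1, Gfap, Sox9 and Aldoc), every gene as a percent of its own level per cell in astrocyte-like cells. The markers took part in the grouping and Apoe did not, so the grouping could draw cells with many marker counts into the astrocyte-like class, and how much this lowered the markers elsewhere was not tested. In microglia-like cells Apoe stood at 82.5% ± 9.03 of the astrocyte-like level, whereas the 6 markers lay between 7.53% (Slc1a3) and 18.1% (Gfap) with a median of 9.84%. In the Mrc1/Lyve1 cluster Apoe stood at 81.1% ± 7.25 and the markers had a median of 16.4% and a maximum of 54.4% (Gfap). In the strictly gated border macrophage cells Apoe stood at 162% ± 17.1 and the markers, 4 of which the gate limits, at a median of 4.63%. Apoe exceeded all 6 markers in these 3 groups of cells, on 4 of 4 coverslips in each.

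Vessel cells were also above the markers, by a smaller margin, and Apoe in OPC-like and neuron-like cells lay between the lowest and the highest marker. In vessel cells Apoe stood at 30.1% ± 1.53 of the astrocyte-like level, above all 6 markers on 4 of 4 coverslips, the nearest being Gfap at 25.9% and the median 15.8%. The Pdgfrb cluster alone had Apoe at 27.4% and its highest marker at 17.8%, and strictly gated vessel cells had 23.4% and 14%. In OPC-like cells Apoe stood at 17.1% ± 0.780, above 4 of the 6 markers, with a median of 13.6% and with Sox9 at 55.8%. In neuron-like cells Apoe stood at 7.42% ± 0.640 and the marker median was 8.34%, with 3 of the 6 markers below Apoe and Aldoc at 17.1%. Single neuron clusters differed in this. In the Gad1/Gad2 cluster Apoe stood at 9.94%, above 5 of the 6 markers on 4 of 4 coverslips (median 7.26%), with Aldoc at 28.1%. In the Tcf7l2/Slc17a6 cluster it stood at 9.52%, above 4 of the 6 in the mean and above 3 of them on 4 of 4 coverslips (median 8.16%).

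**Figure D2:**
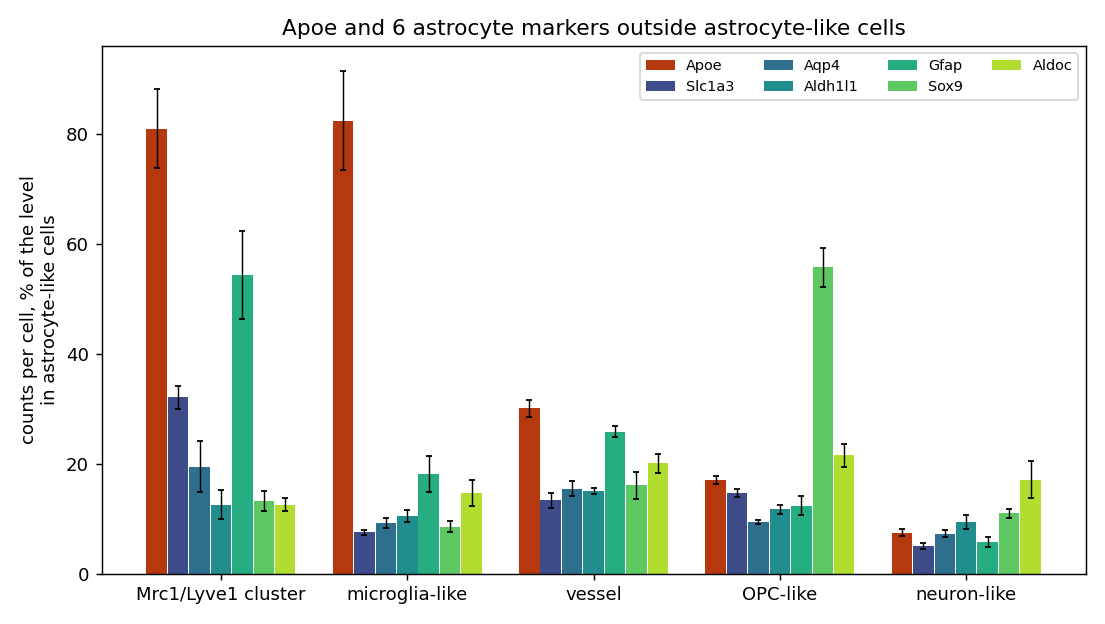
Level per cell of Apoe and of 6 astrocyte marker genes in each class, as a percent of the same gene's level in astrocyte-like cells (mean and SD of 4 coverslips). Apoe in microglia-like cells (82.5%) stands far above the markers (at most 18.1%), and in neuron-like cells (7.42%) it lies among them (median 8.34%).

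The share of cells with any Apoe count followed the same division. Of astrocyte-like, microglia-like and Mrc1/Lyve1 cells, 1.63%, 1.36% and 1.44% had no Apoe count, against 8.20% of vessel cells, 14.4% of OPC-like cells and 30.2% of neuron-like cells. Each cell was then thinned to 50 gene counts, leaving out shallower cells (per coverslip on average 2167 astrocyte-like, 379 microglia-like, 160 Mrc1/Lyve1, 1137 vessel, 1968 OPC-like and 6128 neuron-like cells). After thinning, 97.5% of astrocyte-like cells and 97.2% of microglia-like cells still had Apoe, and 82.3% of vessel cells, 72.0% of OPC-like cells and 33.4% of neuron-like cells did. Whether the Apoe counts of neuron-like cells came from those cells or from neighbours was not tested.

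Among the 5 classes, Apoe varied least from cell to cell in astrocyte-like cells. Their coefficient of variation (CV, the SD over cells divided by the mean, within 1 coverslip) was 0.786, 0.784, 0.799 and 0.764, a mean of 0.783 ± 0.0145. It was 0.983, 1.04, 0.930 and 0.976 in microglia-like cells (mean 0.981 ± 0.0436), and 1.01, 0.990, 0.895 and 0.889 in the Mrc1/Lyve1 cluster (mean 0.945 ± 0.0616). The astrocyte-like CV was the lower of the first pair on 4 of 4 coverslips, by 0.198 on average (SD 0.0507). An exact two-sided sign-flip permutation test over the 4 coverslips gave p = 0.125, the smallest that 4 pairs allow.

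Vessel and OPC-like cells varied more. The CV was 1.34, 1.40, 1.31 and 1.28 in vessel cells and 1.64, 1.68, 1.69 and 1.56 in OPC-like cells. Counting noise at these levels alone gives CVs of 0.167 in astrocyte-like, 0.184 in microglia-like, 0.186 in Mrc1/Lyve1, 0.305 in vessel and 0.406 in OPC-like cells. The summed counts of the other genes varied with CVs of 0.667, 0.752, 0.685, 0.656 and 0.764 in the same classes, below the Apoe CV in each. This sets 1 gene beside a sum of many, and no other single gene was compared in this way.

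Thinned to 50 gene counts per cell, the Apoe CV fell to 0.538 in astrocyte-like, 0.682 in microglia-like, 0.730 in Mrc1/Lyve1, 0.991 in vessel and 1.23 in OPC-like cells. The order of astrocyte-like, microglia-like, vessel and OPC-like cells was kept. The microglia-like cells and the Mrc1/Lyve1 cluster changed places, and their CVs differed in the first direction on only 3 of 4 coverslips before thinning. The strictly gated border macrophage cells had a CV of 0.540 ± 0.0886, below that of all 5 classes as counted. The gate demands marker counts and limits other classes' markers, whereas the 5 classes were not gated. Its effect on the CV was not tested. Within the astrocyte-like class, the Emx2 cluster was the most variable with a CV of 1.16.

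The shape of the distributions shows where this spread lies. In astrocyte-like cells the 10th, 50th, 90th and 99th percentiles of Apoe per cell averaged 5.75, 31.3, 78.0 and 128 counts. In microglia-like cells they averaged 4.25, 21.8, 67.0 and 145, so the median was lower but the top percentile was higher. In OPC-like cells they averaged 0.250, 3.50, 14.3 and 54.1. The top 10% of cells held 26.7% of the class's Apoe in astrocyte-like cells, 32.5% in microglia-like cells, 41.2% in vessel cells and 46.3% in OPC-like cells. The top 10% of cells thus held a larger share of the Apoe counts in the OPC-like than in the astrocyte-like class. The OPC-like mean was also lower, and the part of neighbours' counts or of doublets in this share was not tested.

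**Figure D3:**
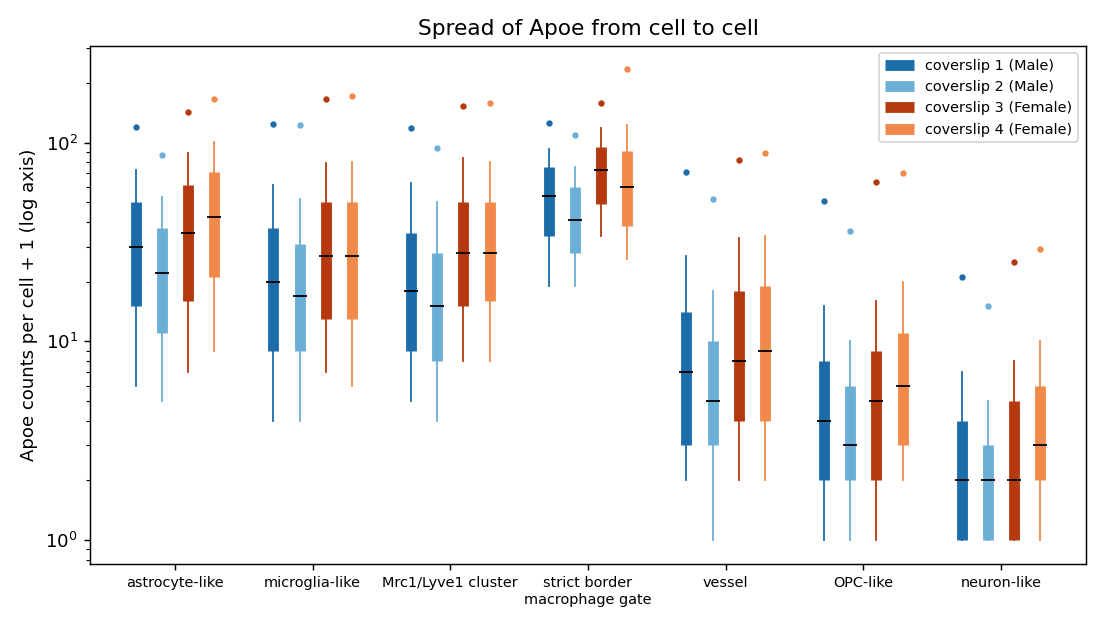
Apoe counts per cell plus 1 (vertical log axis) in each class and on each coverslip, with the median (black line), the 25th to 75th percentile (thick bar), the 10th to 90th (thin line) and the 99th (point). Astrocyte-like cells have the highest medians of the clustered classes (mean 31.3) and OPC-like cells a median of 3.50 with a 99th percentile of 54.1.

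The level was also described by place. Coverslips were divided into squares of side 200 in the files' position units, which the files do not name. Over squares with at least 20 astrocyte-like cells (258, 324, 304 and 561 squares), the 90th percentile of mean Apoe per cell was 2.44, 2.76, 2.98 and 2.55 times the 10th. Over squares with at least 5 microglia-like cells (67, 80, 77 and 189 squares), this ratio was 4.32, 5.35, 4.19 and 4.41. The counts of other genes per cell gave ratios of 1.68 to 2.81 in the astrocyte-like squares and 2.14 to 3.32 in the microglia-like squares. Microglia-like squares hold fewer cells, which widens their range, and the classes were not compared by a test on this measure. The squares of both sections of a coverslip were pooled, and these sections differed in Apoe per cell by up to 1.44 times in astrocyte-like and 1.64 times in microglia-like cells. No ratio for randomly placed cells was computed, so how much of the spread lies between places was not tested.

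The strongest positional difference was in microglia-like cells, between the rim of the section and its interior. The 25% of microglia-like cells nearest to the outer edge of the section held 16.7, 16.1, 24.3 and 21.9 Apoe counts per cell on coverslips 1 to 4. The 25% farthest from it held 34.7, 28.7, 43.9 and 48.1. All 4 near means were below all 4 far means, although single cells overlap widely, and the near means stood at 0.481, 0.562, 0.553 and 0.455 of the far means of their coverslip. In edgeR's quasi-likelihood test Apoe was 1.03 log2 units lower near the edge (log2 difference -1.03 ± 0.12, adjusted p = 3.8e-06), where 30.8% of genes were called, 25 higher and 7 lower; with TMM scaling 10 were higher and 13 lower.

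Over the alternatives run, the edge difference lay between -1.25 and -0.66. The other gene counts of the same cells were higher near the edge, at 1.17 times the far value, and 5 summed microglial markers at 1.16 times, on average. The 4 summed astrocyte markers were at 0.871, 1.15, 0.574 and 0.711 times on coverslips 1 to 4, higher near the edge on coverslip 2 alone. In the 10% of microglia-like cells nearest to the edge and the 10% farthest, Apoe per cell was 18.1 and 37.1 on coverslip 1, 18.2 and 31.0 on coverslip 2, 24.4 and 45.2 on coverslip 3, and 21.4 and 48.5 on coverslip 4. Among the other genes lower in microglia-like cells near the edge was the transcription factor gene Tcf7l2 (log2 difference -2.26, adjusted p = 2.3e-09, edgeR), named after its values were seen. Tcf7l2 also leads the Tcf7l2/Slc17a6 neuron cluster, and which cells its counts came from was not tested.

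Astrocyte-like cells did not pass the same test. Those nearest to the edge held 30.2, 24.5, 40.8 and 47.5 Apoe counts per cell and those farthest 38.5, 24.8, 39.7 and 49.9, lower near the edge on 3 of 4 coverslips and higher on coverslip 3 (log2 difference -0.18 ± 0.14, adjusted p = 0.306, edgeR; 52.9% called). The 10% nearest and the 10% farthest held 29.1 and 42.5 counts on coverslip 1, 24.3 and 25 on coverslip 2, 39.3 and 48.1 on coverslip 3, and 43.7 and 62.3 on coverslip 4, so the innermost cells were higher on 4 of 4 coverslips. The difference between the classes was tested as an interaction over 16 sums, a test added after the data were seen. The edge difference of microglia-like cells was 0.85 log2 units more negative than that of astrocyte-like cells (-0.85 ± 0.15, adjusted p = 0.0014, edgeR; 45.2% of genes called). It was -1.16 with TMM scaling (adjusted p = 9.3e-05, edgeR) and -0.62 with library totals (adjusted p = 1.2e-04, edgeR).

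**Figure D4:**
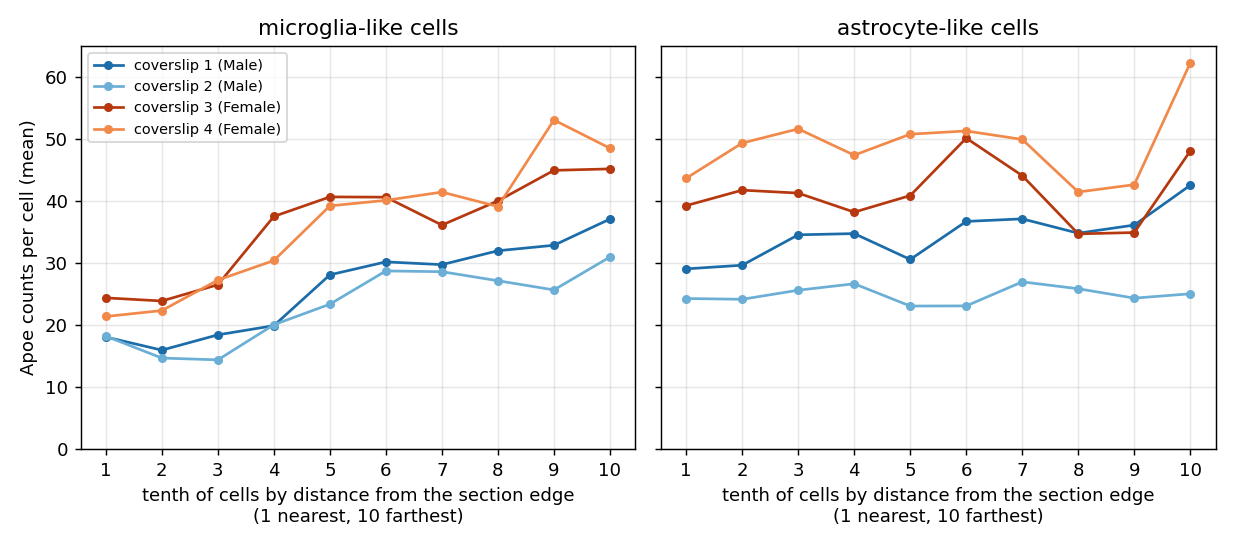
Mean Apoe counts per cell (vertical axis) in 10 bins of equal cell number ordered by distance from the section edge (horizontal axis), for microglia-like (left) and astrocyte-like cells (right), with 1 line per coverslip. Microglia-like cells run from 18.1 to 24.4 counts in the nearest bin to 31.0 to 48.5 in the farthest, and astrocyte-like cells from 24.3 to 43.7 and 25 to 62.3, with no steady course between.

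The mix of neurons at the rim and in the interior was not compared. The edge comparison was also made among cells grouped by the cluster most frequent among their 20 nearest neurons (Fosl2 cluster included). Near and far were here the 50% of cells on either side of the median distance. This description was added after the data were seen. Among microglia-like cells, Apoe near the edge was 0.544 to 0.824 times the far value over the 6 neighbourhoods with enough cells, and lower on 4 of 4 coverslips in each of them. Among astrocyte-like cells the ratio lay between 0.740 and 1.29 over 8 neighbourhoods. It was lower on 4 of 4 coverslips beside Syt6 neurons (0.740) and Tcf7l2/Slc17a6 neurons (0.882), and higher on 4 of 4 beside Gad1/Bcl11b neurons (1.16) and Bcl11b neurons (1.29).

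The level also differed with the neurons around a cell, as a description with no test. Astrocyte-like cells beside the Tcf7l2/Slc17a6 cluster held 45.0, 31.4, 53.6 and 61.2 Apoe counts per cell, 1.25 to 1.3 times the class mean of their coverslip. Those beside the Rorb/Cux2 and the Cux2 clusters were lowest, at 0.760 and 0.814 times the class mean, and below it on 4 of 4 coverslips. Microglia-like cells were also high beside the Tcf7l2/Slc17a6 cluster, at 1.18 times their class mean, and beside the Gad1/Gad2 cluster, at 1.16 times, each on 4 of 4 coverslips. They were lowest beside the Cux2 cluster with 19.1, 13.7, 18.2 and 16.4 counts per cell, 0.569 times the class mean. As background, Rorb and Cux2 mark neurons of the middle and upper cortical layers, and Tcf7l2 with Slc17a6 marks thalamic neurons.

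Apoe was next compared between the cells nearest to and farthest from another class, again as the nearest and farthest 25%. The distance from astrocyte-like cells separated Apoe in each of 5 other classes. Microglia-like cells near an astrocyte-like cell held 29.1, 27.1, 39.8 and 41.8 counts per cell, and far ones 24.4, 18.8, 32.0 and 33.2 (log2 difference 0.56 ± 0.04, adjusted p = 1.1e-07, edgeR; 36.5% called). Apoe was higher near on 4 of 4 coverslips, by 1.19 to 1.44 times per cell. The 4 astrocyte markers in the same microglia-like cells averaged 2.38 counts per cell far from and 7.28 near an astrocyte-like cell, with a mean ratio of 3.05, and their part in the Apoe difference was not tested.

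Vessel cells near an astrocyte-like cell held 13.5, 9.21, 16.1 and 17.7 Apoe counts per cell, against 9.02, 5.85, 10.8 and 11.6 far from one (0.84 ± 0.03, adjusted p = 1.7e-11, edgeR; 63.5% called). OPC-like cells held 7.65, 5.04, 8.81 and 11 near and 5.29, 3.67, 5.99 and 7.66 far (0.65 ± 0.02, adjusted p = 1.9e-16, edgeR; 51% called). Both rose on 4 of 4 coverslips, and the astrocyte markers rose with them, by 2.28 times in vessel cells and 1.83 times in OPC-like cells. The Mrc1/Lyve1 cluster held 28.2, 23, 37.5 and 38.9 near and 19.8, 16.8, 33.6 and 30.7 far (0.57 ± 0.08, adjusted p = 8.3e-04, edgeR; 30.8% called), with astrocyte markers at 1.87 times. Among strictly gated border macrophage cells the difference was 0.19 with adjusted p = 0.344 (edgeR).

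Neuron-like cells were compared in the same way. Near an astrocyte-like cell they held 3.55, 2.28, 4.26 and 5.60 Apoe counts per cell, and far from one 2.04, 1.43, 2.33 and 3.30 (0.87 ± 0.03, adjusted p = 1.3e-102, edgeR; 39.4% called). Their Apoe ratio and their astrocyte marker ratio each averaged 1.71. In microglia-like, vessel, OPC-like and Mrc1/Lyve1 cells the Apoe ratio was below the marker ratio. The part of astrocyte signal in these differences was not tested.

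**Figure D5:**
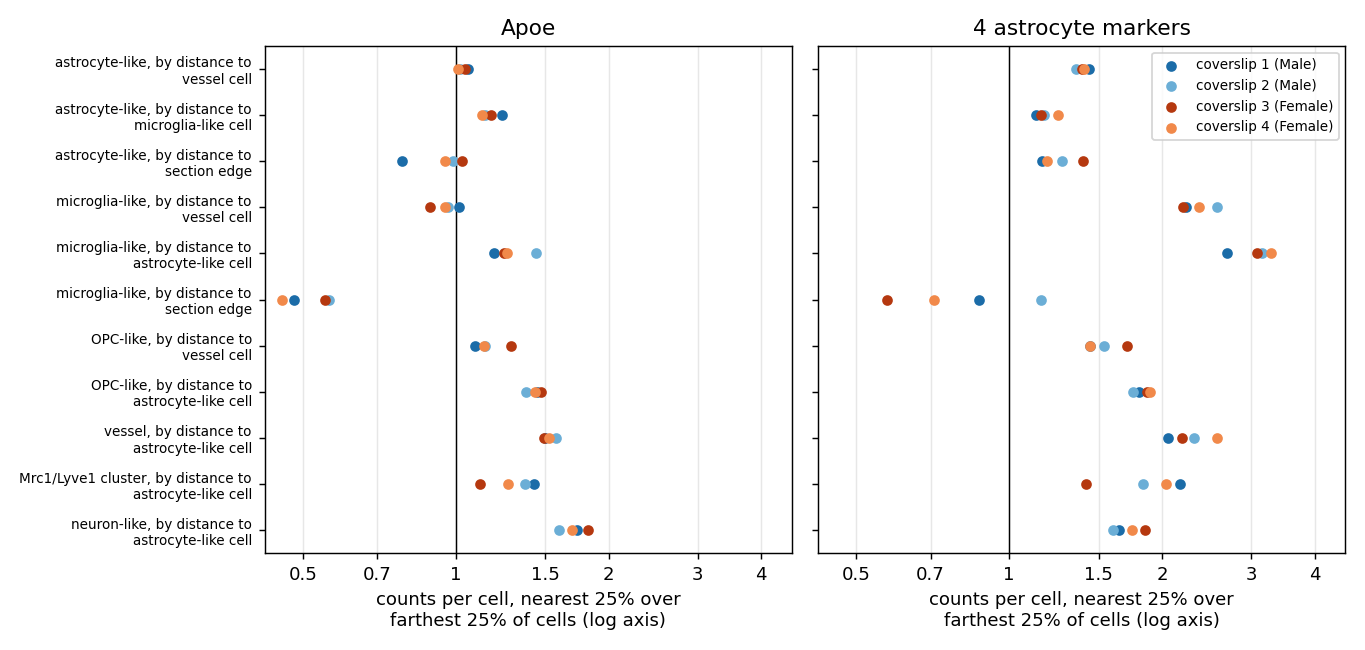
Ratio of counts per cell in the nearest 25% over the farthest 25% of cells (horizontal log axis), with 1 point per coverslip, for Apoe (left) and for the 4 summed astrocyte markers (right) in each class and for each distance. Apoe by distance to the section edge lies at 0.455 to 0.562 in microglia-like cells, and by distance to the nearest astrocyte-like cell it lies above 1 on all 4 coverslips in every class shown.

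Astrocyte-like cells held slightly more Apoe near microglia-like cells. Near ones held 37.5, 26.4, 44.4 and 52.0 counts per cell and far ones 30.4, 23.1, 37.9 and 46.1, higher near on 4 of 4 coverslips (0.28 ± 0.04, adjusted p = 0.0086, edgeR; 23.1% called). The adjusted p rose to 0.062 without male replicate 2 and 0.087 without female replicate 1. The astrocyte markers of the same cells were at 1.18 times near microglia-like cells, beside a mean Apoe ratio of 1.17.

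For the distance from vessels, the direction in astrocyte-like and microglia-like cells turned on the scale. Astrocyte-like cells near vessel cells held 35.6, 24.9, 42.4 and 48.8 counts per cell and far ones 33.7, 24.4, 40.6 and 48.4. Per cell volume the difference was 0.15 ± 0.03 (adjusted p = 1.9e-04, edgeR; 60.6% called), but it was -0.01 with TMM scaling, and as a percent of gene counts Apoe was lower near vessels on 4 of 4 coverslips, at 0.947 times. The astrocyte markers of these cells were at 1.40 times near vessels. Microglia-like cells held 27.1, 22.1, 32.9 and 35.1 near vessel cells and 26.7, 22.9, 36.9 and 36.9 far from them (0.02 ± 0.03, adjusted p = 0.692, edgeR; 40.4% called). With TMM scaling the difference was -0.21 (adjusted p = 9.3e-04, edgeR). As a percent of gene counts Apoe in microglia-like cells was lower near vessels on 4 of 4 coverslips, at 0.902 times, and the astrocyte markers of the same cells were at 2.34 times.

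OPC-like cells held 6.50, 4.30, 7.80 and 9.45 Apoe counts per cell near vessel cells and 5.96, 3.77, 6.06 and 8.32 far from them. Apoe was higher near on 4 of 4 coverslips (0.29 ± 0.04, adjusted p = 2.3e-06, edgeR), in a comparison where 69.2% of genes were called, 72 of them higher and 0 lower. With TMM scaling 31 genes were called, 17 higher and 14 lower. Astrocyte markers were at 1.53 times in the same OPC-like cells, and their part was not tested.

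Each coverslip held 2 sections, which differ in genotype in a way the files used here do not assign. They were compared only by the ratio of the higher to the lower section. For Apoe per cell this ratio was 1.01 to 1.44 over the 4 coverslips in astrocyte-like cells, 1.15 to 1.64 in microglia-like cells, 1.06 to 1.45 in OPC-like cells and 1.02 to 1.42 in vessel cells. As a percent of gene counts it was 1.03 to 1.23 in astrocyte-like and 1.03 to 1.27 in microglia-like cells. No comparison between genotypes was made.

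Between sexes, Apoe per cell was higher on both female coverslips than on both male coverslips in each of the 5 classes. The female and male means were 45.2 and 29.7 counts per cell in astrocyte-like cells, 36.1 and 24.7 in microglia-like cells, 37.3 and 23.3 in the Mrc1/Lyve1 cluster, 7.86 and 5.03 in OPC-like cells and 13.5 and 9.01 in vessel cells. An exact two-sided permutation test gives p = 0.333 for each, the smallest that 2 against 2 coverslips allow. The median of all gene counts moved the same way, at 197 in female and 147 in male astrocyte-like cells and 146 and 112 in microglia-like cells. As a percent of gene counts, Apoe overlapped between the sexes in astrocyte-like, microglia-like and vessel cells. It did not overlap in the Mrc1/Lyve1 cluster, with means of 18.3% in females and 15.4% in males, or in OPC-like cells, with 4.89% and 4.01% (p = 0.333 for each in the same exact permutation test).

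After TMM scaling of the 4 sums of a class, edgeR gave female minus male log2 differences of 0.15 in astrocyte-like cells (adjusted p = 0.827), 0.13 in microglia-like cells (adjusted p = 0.851) and 0.28 in the Mrc1/Lyve1 cluster (adjusted p = 0.298). In OPC-like cells it gave 0.23 (adjusted p = 0.747) and in vessel cells 0.23 (adjusted p = 0.872). The shares of the 140 genes called were 1.43% in astrocyte-like, 0.714% in OPC-like and 0% in the other 3 classes, where 10 to 18 genes had an unadjusted p under 0.05 with edgeR. DESeq2 called 0 genes in those 3 classes. Sex and depth could not be told apart for the level per cell.

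Among panel genes not used for grouping, Sdc4, Slc9a3r1, Lrp5, Glul and Fzd2 had the highest Pearson correlations with Apoe over the 24 populations. Their Pearson correlations with Apoe in log2 counts per cell volume were 0.963, 0.921, 0.773, 0.753 and 0.744, and their Spearman correlations 0.939, 0.934, 0.713, 0.504 and 0.640. Ranked by Spearman correlation, other genes came before Lrp5, Glul and Fzd2. Of the grouping genes left out, Slc1a3 (Pearson 0.881) and Aqp4 (0.804) were above Lrp5, and Gfap (0.763) and Aldh1l1 (0.757) were above Glul. The 24 points share their 4 coverslips, their depth and the neighbours from which cells take counts, and these values are descriptions. Sdc4, a cell-surface heparan sulfate proteoglycan, averaged 2.32 counts per cell in astrocyte-like, 1.27 in microglia-like, 1.5 in Mrc1/Lyve1, 0.587 in vessel, 0.287 in OPC-like and 0.204 in neuron-like cells. In neuron-like cells it was above every blank barcode on 0 of 4 coverslips. Slc9a3r1, a scaffold protein that binds Ezr, differed from Apoe in microglia-like cells, with 0.760 counts per cell there against 3.00 in astrocyte-like and 2.14 in Mrc1/Lyve1 cells.

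Glul, the glutamine synthetase gene of astrocytes, averaged 6.88 counts per cell in astrocyte-like, 2.73 in microglia-like and 5.22 in Mrc1/Lyve1 cells, and 4.62 in vessel cells. Lrp5, a Wnt co-receptor of the LDL receptor family, was highest in vessel cells with 2.44 counts per cell, followed by 2.29 in the Mrc1/Lyve1 cluster, 1.80 in microglia-like and 0.963 in astrocyte-like cells. Fzd2, a Wnt receptor, averaged 0.804 in astrocyte-like and 1.44 in Mrc1/Lyve1 cells but 0.0615 in microglia-like cells, where it was above every blank barcode on 0 of 4 coverslips. Of these 5 genes, Sdc4 alone had all 3 leading classes above vessel, OPC-like and neuron-like cells in mean level per cell.

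The panel held few genes of the pathway. Of 10 listed LDL receptor family genes 2 were measured, Lrp5 and Lrp6, and of 12 genes of lipid transport and sensing and 8 microglial response genes 0 were measured. The 10 listed heparan sulfate proteoglycan core genes were all measured. Between astrocyte-like and microglia-like cells 10 of these 10 were called higher in astrocyte-like cells per cell volume, as were 90.4% of all genes tested (6.73% were lower). Their median was 1.05 log2 units, against 0.96 over all genes tested. Lrp5 was lower (-0.83) and Lrp6 was called higher. Lrp6 was near the floor, at 0.0905 counts per cell in astrocyte-like and 0.0508 in microglia-like cells. It was above every blank barcode on 0 of 4 coverslips in both classes. With TMM scaling 4 of the 10 were higher and 4 lower (median -0.05), so the common direction of this list rests on the scaling by volume, whereas Lrp5 stayed lower (-1.92). Between astrocyte-like cells and the Mrc1/Lyve1 cluster 4 were higher, beside 32.7% of all genes, and 4 were lower, beside 47.1% (median 0.19, against -0.15 over all genes); with TMM scaling 6 were higher and 4 lower. Near the section edge, 3 were higher in microglia-like cells, namely Gpc4 (0.75), Gpc5 (0.96) and Sdc1 (0.56), beside 24% of all genes, and 0 of the 10 were called lower, beside 6.73% of all genes. Their median was 0.22, against 0.20 over all genes, and with TMM scaling 2 were higher and 1 lower (median 0.00449). In microglia-like cells Sdc1 and Gpc4 were near the floor, at 0.125 and 0.149 counts per cell. Sdc1 was above every blank barcode there on 0 of 4 coverslips and Gpc4 on 1 of 4.

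Sdc4, like Apoe, was higher near astrocyte-like neighbours in 3 of the classes and gave another value in microglia-like cells. Sdc4 was higher near astrocyte-like cells in OPC-like cells by 0.89 log2 units (adjusted p = 4.9e-13, edgeR), in vessel cells by 0.79 (adjusted p = 7.4e-08, edgeR) and in neuron-like cells by 0.63 (adjusted p = 6.4e-27, edgeR). The neuron-like value is near the floor, since Sdc4 there averaged 0.204 counts per cell, above every blank barcode on 0 of 4 coverslips. In microglia-like cells the difference for Sdc4 was 0.03 (adjusted p = 0.742, edgeR; -0.17 with library totals) where that for Apoe was 0.56, and the 2 genes' differences were not tested against each other. Among the 10 core genes, 0 were called higher in microglia-like cells near astrocyte-like cells, beside 21.2% of all genes, and 2 were lower, Gpc1 (-0.29) and Sdc3 (-0.56), beside 15.4%.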

How the data were processed

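Counts per gene and cell were used as the authors deposited them, 1 table per coverslip, with 140 genes and 40 blank barcodes per the file headers. Cell volume and centre positions came from the deposited cell tables, whose values have no stated unit. The software for decoding and segmentation is not given in the sources used here. A cell's name is a row number that coverslips 1 to 3 share, so cells were keyed by coverslip.

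Cells with at least 20 gene counts were kept. Their counts of 36 marker genes, scaled to 200 per cell, were clustered in 60000 cells (15000 per coverslip) by Leiden partition of a graph of 15 neighbours, with a resolution of 2 (igraph 0.11.9 and leidenalg 0.10.2). All kept cells then took the most frequent cluster among their 15 nearest of 16000 reference cells. Cluster names, marker gates (at least 5 own marker counts and 3 times those of other classes; microglia and border macrophages were not set against each other but parted by Lyve1) and the extra position measures were chosen after the data were seen. Members and lists were chosen with earlier results of these data known. Apoe took no part in the grouping. The genes named are Apoe, the 5 panel genes outside the grouping with the highest Pearson correlation with it over populations, and the panel members of 4 lists. Marker genes are named as checks.

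Summed counts were tested with edgeR 4.0.16 in R 4.3.3 (glmQLFit and glmQLFTest, summed volume as offset, coverslip block, 104 genes), and sexes with TMM factors over 140 genes. Adjusted p-values are Benjamini-Hochberg, called under 0.05. A log2 difference is the first group named minus the second, or near minus far. DESeq2 1.42.0, other scalings, filters, gates and leaving out each coverslip were alternatives. On simulated data for the microglia-like against Mrc1/Lyve1 comparison (104 genes), edgeR recovered 10 of 10 genes changed 1.5-fold and 10 of 10 changed 2-fold. Whether such changes would be found at the spread of the measured counts was not tested. Tables and distances were made in Python 3.11.15 (numpy 2.4.6, pandas 2.3.3, scipy 1.17.1, scikit-learn 1.9.0, matplotlib 3.10.9). Genotypes were not compared, since no source used here assigns sections to them, and no genome coordinates or sequences were used. Some marker genes that took part in the grouping are not reported here.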

Additional observations from a re-analysis of the deposited data

Results flagged for a closer look

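Of 81 sets of 4 coverslip values examined, 5 had a coverslip whose gap to its nearest neighbour, divided by the whole range, was above Dixon's critical value of 0.829. About 1 in 20 such sets exceeds it by chance. Apoe as a percent of gene counts in microglia-like cells was 24.7% on coverslip 3 and 19.1% to 19.5% on the others (ratio of gap to range 0.926). In the Gad1/Bcl11b cluster it was 0.714% on coverslip 2 against 1.1% to 1.13% (0.928). The low-count cluster, which has no assigned type, held 0.344, 0.486, 1.09 and 6.59 Apoe counts per cell on coverslips 1 to 4 (0.881), and Apoe was 0.761%, 1.20%, 2.22% and 12.3% of its gene counts (0.874). The ratio of Apoe in microglia-like cells near to far from a Gfap-high astrocyte-like cell was 1.60 on coverslip 2 against 1.24 to 1.28 (0.912).

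The response of Apoe to position differed between microglia-like and astrocyte-like cells in 2 interaction tests with edgeR. For the section edge the near minus far difference in microglia-like cells minus that in astrocyte-like cells was -0.85 ± 0.15 log2 units (SE, adjusted p = 0.0014, edgeR), and the ratio per cell was lower in microglia-like cells on 4 of 4 coverslips. For vessel cells the same difference was -0.14 ± 0.04 (adjusted p = 0.0166, edgeR; 19.2% of genes called), with adjusted p = 0.0653 when library totals were the scale.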

How the results depend on the processing

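No paired analysis was possible because the replicate numbers of the 2 sexes were given in accession order; this holds for the comparison between sexes, whereas classes and positions were compared within coverslips, with the coverslip as a block. Of the alternatives run, 134 of 150 for class pairs, 112 of 121 for position, 46 of 50 for sex and 39 of 40 for levels kept direction and side of the threshold (or stayed within 1 SD), and 1 of 15 for spread did. Scaling to the genes in place of volume moved the median of all genes by -1.10 to 1.15 log2 units over class pairs with TMM factors and by -0.23 to 0.02 over position. The exceptions follow, and their cause was not tested. Astrocyte-like against microglia-like cells gave -0.75 with TMM factors, -0.52 with library totals and -0.74 with DESeq2, and 0.36 (adjusted p = 0.188, edgeR) without the coverslip block. Astrocyte-like cells against the Mrc1/Lyve1 cluster gave -0.96 with marker gates, 0.26 at resolution 1, 0.42 with TMM factors, 0.34 with library totals, 0.40 with DESeq2, 0.21 with all populations in 1 fit and 0.13 to 0.30 with each coverslip left out. Microglia-like cells against the Mrc1/Lyve1 cluster gave -1.36 with gates, -0.35 with no minimum count, 1.02 with TMM factors, 0.86 with library totals and 1.11 with DESeq2. In the order TMM factors, library totals and DESeq2, the vessel distance gave -0.0097, 0.010 and -0.045 in astrocyte-like and -0.21, -0.084 and -0.23 in microglia-like cells. Gates gave 0.19 for the Mrc1/Lyve1 cluster by distance from astrocyte-like cells, and 60.0 counts per cell for its level. Astrocyte-like cells by distance from microglia-like cells gave 0.24 to 0.31 with each coverslip left out. Between sexes the Mrc1/Lyve1 cluster gave -0.080 with gates and 0.82 (adjusted p = 0.0028, edgeR) with a volume offset, and leaving out coverslips gave -0.075 to 0.35 in astrocyte-like and -0.11 to 0.34 in microglia-like cells. The CV per cell volume and after thinning was 0.663 and 0.538 in astrocyte-like, 0.909 and 0.682 in microglia-like, 0.849 and 0.730 in Mrc1/Lyve1, 1.37 and 1.23 in OPC-like, and 1.13 and 0.991 in vessel cells, and with gates 1.04, 0.540, 1.32 and 1.13 in the last 4.

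The number of genes called differed from that reported by over 1.5 times in 1 of 150 alternatives for class pairs (43 against 81 for astrocyte-like against OPC-like cells without the block), 25 of 121 for position and 15 of 50 for sex. For the edge in microglia-like cells it was 13 without male replicate 1, 21 without either female coverslip, 18 with DESeq2 and 74 with library totals, against 32. For astrocyte-like cells by distance from microglia-like cells it was 1 without male replicate 2, 0 without female replicate 1 and 46 with library totals, against 24. For the Mrc1/Lyve1 cluster between sexes it was 57 with a volume offset, against 0.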

Other observations

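The distance from newly formed oligodendrocyte-like cells, chosen after the data were seen and given with no test, separated Apoe in microglia-like cells. The 25% of microglia-like cells nearest to one held 32.4, 33.0, 45.4 and 44.4 Apoe counts per cell on coverslips 1 to 4, and the 25% farthest held 19.3, 16.2, 25.8 and 26.8. The ratio was 1.66 to 2.04 (mean 1.79), above 1 on 4 of 4 coverslips. The other gene counts of the near cells were lower, at 0.798 times those of the far cells, and the astrocyte markers were at 1.13, 0.745, 0.701 and 0.729 times on coverslips 1 to 4. In astrocyte-like cells the same distance gave a mean Apoe ratio of 1.11.

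Astrocyte-like cells nearest to another cell of the Gfap-high cluster held 29.2, 17.5, 29.3 and 34.7 Apoe counts per cell, and those farthest held 38.6, 28.4, 46.1 and 58.6. The ratio was 0.592 to 0.756 and below 1 on 4 of 4 coverslips, while the astrocyte markers of the near cells were at 1.16 times those of the far cells. Per cell volume the Apoe ratio was nearer to 1, at 0.886, 0.775, 0.756 and 0.746 on coverslips 1 to 4. As a percent of gene counts it was 0.840, 0.777, 0.681 and 0.724. The distances from the section edge, from newly formed oligodendrocyte-like cells and from Gfap-high cells share the same tissue layout and are not independent of one another.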
